A study of Mus musculus with 2 samples.

Results

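Ligand-gated ion channels are membrane proteins that open a pore when a transmitter binds, and their subunit genes were taken from RNA-sequencing of cultured dentate gyrus (DG) astrocytes. The members were chosen by gene symbol, as the AMPA (Gria), delta (Grid), kainate (Grik) and NMDA (Grin) glutamate receptor genes, the GABA-A (Gabr) and glycine (Glr) receptor genes, the nicotinic acetylcholine receptor genes (Chrn) and the P2X genes for ATP-gated channels (P2rx). Of 65 such genes, 49 appeared in the table of either library, out of 16302 listed symbols in all. Both tables listed 42 of them, 2 were in the WT table alone and 5 in the KO table alone.

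The samples were DG astrocytes of mice labelled C57BL/6 (C57BL/6J in the methods), wildtype (WT) or Beta-arr1 knockout (β-arr1 KO), so that the knockout was not limited to astrocytes. According to the methods, adult DG was dissociated, grown for days in serum and shaken to detach dividing cells, oligodendrocyte progenitors and neurons, and the purity was judged by S100β staining. The design text describes the cDNA as pooled. There was 1 library per genotype, so every difference between WT and KO lacks a replicate check and no p-value was computed. Levels are FPKM (fragments per kilobase of transcript, scaled to a fixed number of mapped fragments), a unit already adjusted for transcript length, so levels of different genes can be compared. Arrb1, which encodes β-arr1, was at 7.62 FPKM in WT against 2.72 in KO, a ratio of 0.358.

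In the nervous system these channels carry fast synaptic transmission. Glutamate receptors form as tetramers of related subunits and pass cations. GABA-A, glycine and nicotinic receptors are pentamers of the Cys-loop family, of which the first and second pass chloride and the nicotinic receptors pass cations. P2X channels are trimers opened by extracellular ATP. Astrocytes are known to express some AMPA, kainate and GABA-A receptor subunits, and microglia are known for P2X4 and P2X7.

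In AMPA and kainate receptors, a codon in the pore loop is decisive for calcium entry. In Gria2, Grik1 and Grik2 the glutamine codon at this Q/R site is known to be recoded to arginine by editing of the RNA, and receptors with edited GluA2 let little calcium through. Windows of 30 coding bases around the site are shown because the AMPA and kainate genes furthest past the fold limit below, Gria2 and Grik2, both carry it. They were read from GENCODE transcripts of NCBIM37 (mm9), 5′ to 3′ on the coding strand, with the glutamine codon in capitals.
Gria1: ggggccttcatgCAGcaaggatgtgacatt
Gria2: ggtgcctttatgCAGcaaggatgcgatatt
Gria3: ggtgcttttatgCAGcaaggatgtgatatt
Gria4: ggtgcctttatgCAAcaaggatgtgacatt
Grik1: ggagctctcatgCAGcaaggatcggagctg
Grik2: ggagctctcatgCAGcaaggttctgagctc
The codons lie at chr11:57056596-57056598 (plus strand, exon 11 of 16), chr3:80510833-80510835 (minus strand, exon 11 of 17), chrX:38963442-38963444 (plus strand, exon 11 of 16), chr9:4464137-4464139 (minus strand, exon 12 of 17), chr16:87940787-87940789 (minus strand, exon 11 of 15) and chr10:48964135-48964137 (minus strand, exon 13 of 17). The Gria3 window shares 28 of its 30 bases with that of Gria2, and the Grik2 window shares 20. In Grik1 and Grik2 the window runs across a splice junction. An FPKM value counts edited and unedited transcripts alike, so editing was not measured here. Adarb1, the gene of the enzyme that edits this site, was at 1.35 FPKM in WT against 1.98 in KO, and was looked up after the values of the members were seen.

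Members spanned a wide range of levels, from 0.0286 to 40.1 FPKM in WT and from 0.0233 to 43.0 FPKM in KO. Gria3 was the highest member in both libraries, followed by P2rx4 and Grik5 in WT and by Grik5 and P2rx4 in KO. Glutamate receptor genes made up 57.9% of the summed FPKM of the members in WT and 60.1% in KO. The sum over the members was 136 FPKM in WT against 157 in KO.

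**Figure D1:**
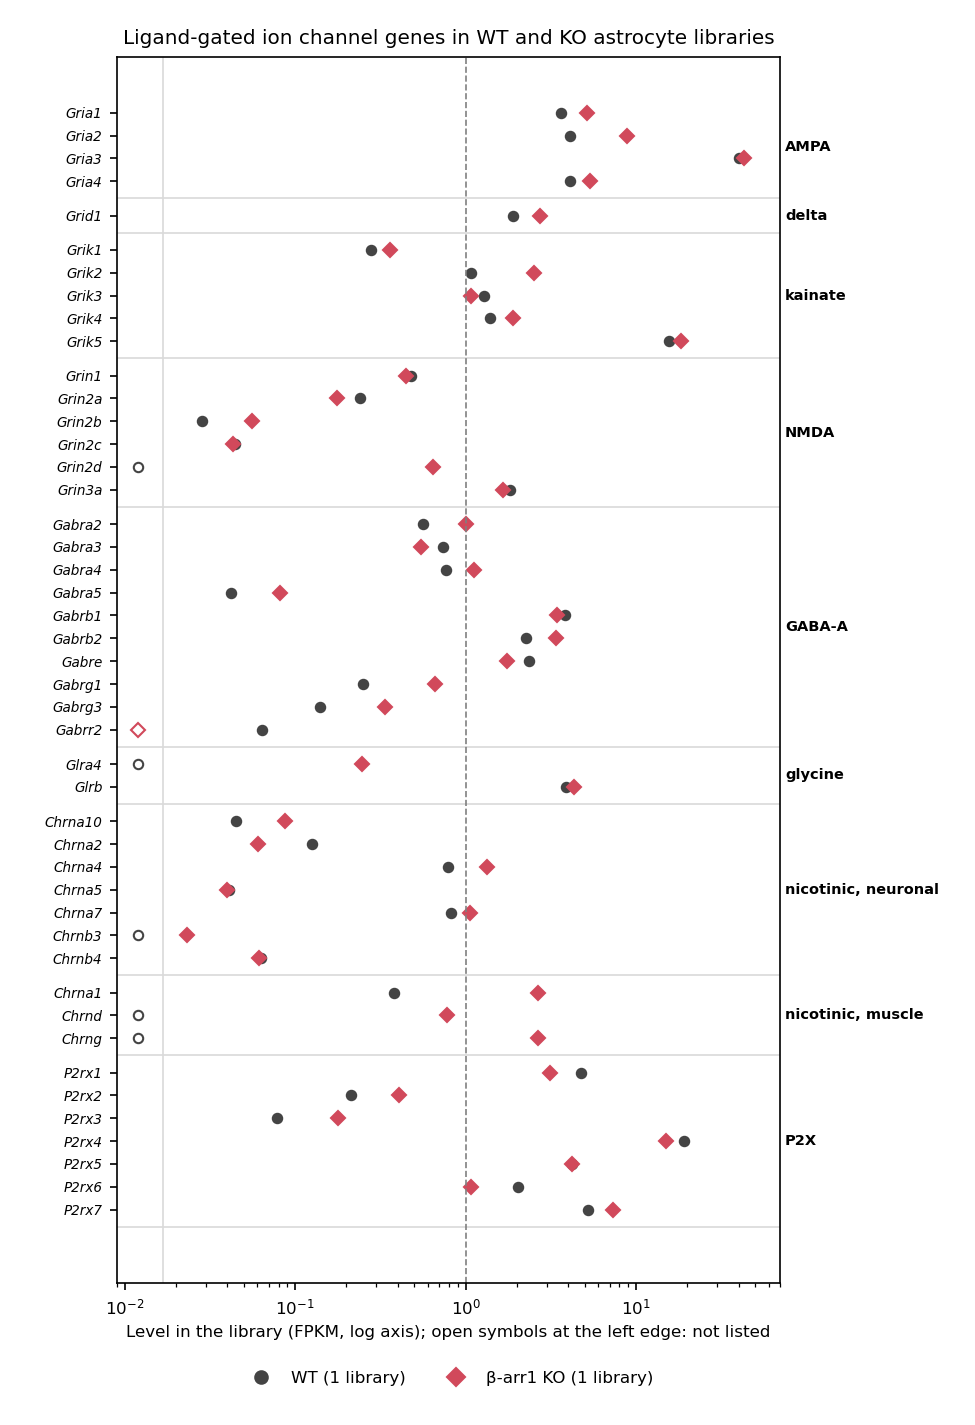
Level of 45 of the 49 members in FPKM (log axis) in the WT library (dark circles) and the β-arr1 KO library (red diamonds), grouped by receptor family, with the dashed line at 1 FPKM. Open symbols at the left edge stand for genes that the table of that library does not list, and Gria3, Grik5 and P2rx4 lie furthest to the right.

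The depth behind these values could be read from the lowest of them. Most of them fall on multiples of the value of 1 fragment. The fitted step corresponds to 9.54 M mapped fragments in WT and 9.82 M in KO. Of 21 member values resting on 4 fragments or fewer, 17 lay within 5% of a whole number of fragments. The depth was chosen to give such agreement among low values, some members included, so this count is not a test of it. The fragment numbers below were estimated from this step and the longest annotated transcript, and the 95% intervals (exact Clopper-Pearson) cover counting error alone.

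Of the 49 members, 27 reached 1 FPKM in at least one library, and 26 of these were listed in both tables. A ratio of β-arr1 KO vs. WT above 3/2 or below 2/3 was counted as past the fold, the limits used in the study. It was above 3/2 in 6 of the 26 (23.1%), namely Gria2, Grik2, Gabra2, Gabrb2, Chrna1 and Chrna4, and below 2/3 in 2 (7.69%), P2rx1 and P2rx6. Over all 12171 genes treated the same way, 7.90% were above 3/2, 6.74% below 2/3 and 14.6% past either limit. Weakly expressed genes pass such limits more often. Among genes whose higher value was between 1 and 5 FPKM, 28.2% were past a limit, and 7 of the 19 members in that range were. Among genes at 5 FPKM or more, 10.1% were past a limit, and 1 of the 7 members there, Gria2, was. In 5 of the 26 members, among them Chrna1, Chrna4 and Gabra2, the KO library alone reached 1 FPKM. With 1 FPKM required in both libraries, 5 of 21 members were past a limit against 11.8% of all genes.

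**Figure D2:**
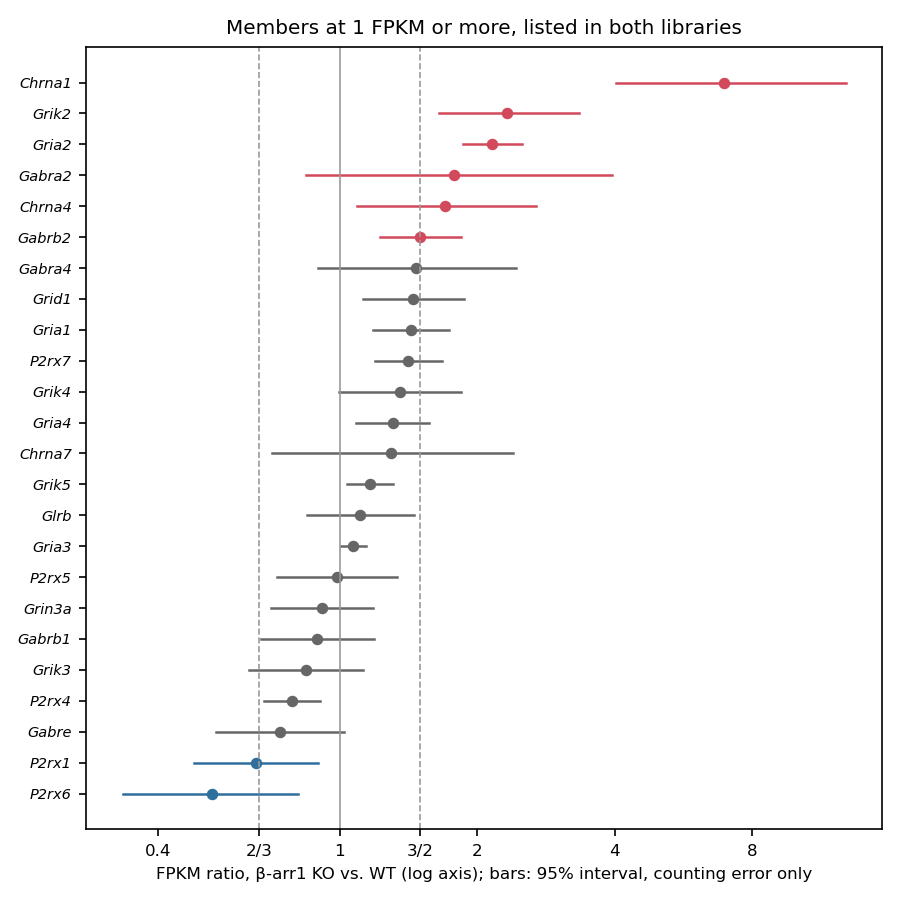
FPKM ratio of β-arr1 KO vs. WT (log axis) of 24 of the 26 members listed in both libraries and reaching 1 FPKM in either. Points are ratios, bars are 95% intervals for counting error, dashed lines mark 2/3 and 3/2, and red and blue mark the 6 genes above and the 2 genes below these limits, of which Chrna1 has the highest ratio.

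The median log2 ratio of the 26 members was 0.37, and 17 of them (65.4%) were higher in KO, against 0.02 and 53.1% for all 12171 genes. Both values depend on the minimum, since the 5 members that passed it through KO alone had to be higher there. Over the 21 members at 1 FPKM in both libraries, the median was 0.15 and 12 (57.1%) were higher in KO, against 0.02 and 53.0% of the 11622 genes so chosen. The interval left out 1 in 15 of the 26 members, including 7 of the 8 past the limits. The exception was Gabra2, with an estimated 12 and 22 fragments. No such count was made over all genes. Intervals narrow as fragments increase, so that of Gria3 left out 1 at a ratio of 1.07. The 15 are therefore not a result about channel genes.

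AMPA receptors carry most fast excitatory transmission, and all 4 of their subunit genes were above 1 FPKM in both libraries. Gria2 (NCBI gene 14800), which encodes GluA2, was at 4.10 FPKM in WT against 8.84 in KO. Its ratio of 2.16 (95% interval, 1.86 to 2.50) rested on an estimated 265 and 589 fragments and was past 3/2. The gene lies on the minus strand of chromosome 3 from 80488858 to 80606713 in NCBIM37. The glycine receptor gene Glrb, whose annotated bounds are 40.8 kb away, had a ratio of 1.11. The listed bounds of Gria2, and of Grik2 and P2rx1 described below, differed between the libraries. Different bounds can change the length that Cufflinks used, and an effect of this on the ratios was not tested.

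The other AMPA genes lay inside the limits. Gria1 (GluA1) was at 3.61 and 5.17 FPKM (ratio 1.43, interval 1.18 to 1.73). Gria4 (GluA4) was at 4.09 and 5.34 FPKM (ratio 1.31, interval 1.09 to 1.57). Gria3, which encodes GluA3 and lies on the X chromosome, was at 40.1 and 43.0 FPKM, and its interval of 1.01 to 1.14 was the narrowest of the 26 members, resting on an estimated 1926 and 2124 fragments. In KO, every AMPA gene was higher than in WT, and the family sum was 51.9 FPKM in WT against 62.3 in KO.

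The make-up of the AMPA genes does not depend on how the libraries are scaled. Gria2 made up 7.89% of the AMPA sum in WT (95% binomial interval at the family's estimated fragments, 6.89 to 9.01) and 14.2% in KO (interval, 13.0 to 15.4). The share of Gria3 was 77.3% in WT (75.6 to 78.9) and 68.9% in KO (67.3 to 70.5). Gria1 took 6.96% and 8.29%, and Gria4 took 7.89% and 8.58%. For Gria2 and Gria3 the intervals of the libraries did not overlap, and for Gria1 and Gria4 they did. Shares within a family depend on each other, and the share of Gria3 was lower in KO although its own ratio was 1.07.

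**Figure D3:**
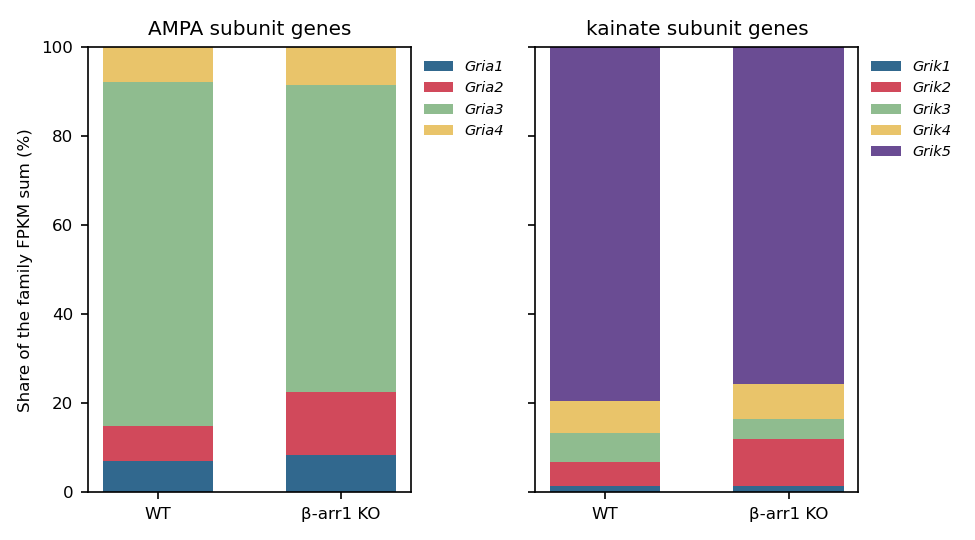
Share of each subunit gene in the summed FPKM of its family (percent), for AMPA genes on the left and kainate genes on the right, with 1 bar per library. The red Gria2 segment is 7.89% (WT) and 14.2% (KO), and the red Grik2 segment is 5.47% and 10.4%.

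Kainate receptors modulate transmitter release and excitability, and Grik5, which encodes the high-affinity subunit GluK5, was the highest of their genes. Its levels of 15.7 FPKM in WT against 18.2 in KO gave a ratio of 1.17 (interval, 1.04 to 1.31). Grik2 (NCBI gene 14806), which encodes GluK2, was at 1.08 FPKM in WT against 2.51 in KO. The ratio of Grik2 was 2.33 (interval, 1.65 to 3.33) from an estimated 48 and 114 fragments, and its share of the kainate sum was 5.47% in WT (3.99 to 7.30) and 10.4% in KO (8.57 to 12.5). Grik5 took 79.5% and 75.8% of that sum, with intervals that overlapped. GluK5 is known to need a partner such as GluK2 to form a channel. Grik4 (GluK4), another high-affinity subunit gene, was at 1.395 and 1.89 FPKM, and Grik3 (GluK3) was at 1.28 and 1.08 FPKM, and neither interval left out 1. Grik1 (GluK1), the highest kainate member below 1 FPKM, was at 0.277 and 0.360 FPKM.

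The delta receptor genes are relatives of the other glutamate receptor genes that act in synapse formation. Grid1 was at 1.90 FPKM in WT against 2.74 in KO (ratio 1.45, interval 1.12 to 1.87).

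NMDA receptors need GluN1, the product of Grin1, together with GluN2 or GluN3 subunits, and their genes were low in these astrocytes. Grin1 was at 0.480 FPKM in WT against 0.447 in KO (an estimated 19 and 18 fragments). Grin3a, which encodes the glycine-binding GluN3A, was the highest NMDA gene at 1.81 and 1.66 FPKM (ratio 0.915, interval 0.706 to 1.18). Its locus holds a second gene, Ppp3r2, which was listed separately in both tables. Grin2d (GluN2D), on the minus strand of chromosome 7 from 53087253 to 53126298, was at 0.646 FPKM in KO (an estimated 33 fragments) and not listed in WT, where 1 fragment would have been worth 0.0199 FPKM. No other gene's row covered its locus in WT. No fold is given for a gene that a table does not list, since a missing value can also be a failed estimate. Grin2a, Grin2b and Grin2c lay between 0.0286 and 0.241 FPKM, and Grin3b was not listed, although a row named ORF61 overlapped its locus in both tables.

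GABA-A receptors are usually built from alpha, beta and gamma subunits, and 13 of their 19 genes were listed. The beta genes were the highest, making up 64.4% of the GABA-A sum in WT and 65.1% in KO. Gabrb1 was at 3.84 and 3.43 FPKM (ratio 0.894, interval 0.673 to 1.19). Gabrb2 was at 2.26 FPKM in WT against 3.39 in KO. Its ratio of 1.501 (interval, 1.23 to 1.84) lay at the limit of 3/2, and was 1.48 after the libraries were rescaled to a median ratio of 1, which placed it inside the limits.

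The alpha genes carry part of the GABA binding site. Gabra2 was at 0.566 FPKM in WT against 1.01 in KO, and the interval of its ratio of 1.78 (0.845 to 3.95) included 1. Gabra4, whose product takes part in extrasynaptic receptors, was at 0.769 and 1.13 FPKM, with an interval that also included 1. Gabra3 was at 0.736 FPKM in WT against 0.545 in KO. The gamma genes, which are needed for benzodiazepine sensitivity, were low. Gabrg1 was at 0.250 and 0.657 FPKM (ratio 2.62, interval 1.28 to 5.80), and Gabrg3 was at 0.140 and 0.339 FPKM (ratio 2.43, interval 1.24 to 5.04). These genes did not reach 1 FPKM and were picked out after their values were seen, as the 2 members below 1 FPKM whose interval left out 1. The epsilon gene Gabre was at 2.35 FPKM in WT against 1.74 in KO (ratio 0.742, interval 0.537 to 1.02). The rho gene Gabrr2 rested on an estimated 1 fragment in WT and was not listed in KO.

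Most listed GABA-A genes lie in clusters, and ratios within the clusters below were compared. On chromosome 5, in map order, Gabrg1, Gabra2, Gabra4 and Gabrb1 had ratios of 2.62, 1.78, 1.47 and 0.894. On chromosome 7, Gabrg3 and Gabra5 had ratios of 2.43 and 1.95, where Gabra5 rested on 1 and 2 fragments. Gabre and Gabra3 on the X chromosome had ratios of 0.742 and 0.740. Neighbours were compared after their values were seen, as a description.

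Of the glycine receptor genes, Glrb, which encodes the beta subunit that binds the scaffold gephyrin, was at 3.89 FPKM in WT against 4.31 in KO (ratio 1.11, interval 0.846 to 1.45). None of the alpha genes Glra1, Glra2 and Glra3, which carry the main glycine site, was listed. Glra4 was at 0.246 FPKM in KO, an estimated 4 fragments, and not listed in WT.

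Nicotinic receptors open on binding acetylcholine, and a set of their subunits is typical of skeletal muscle. The muscle-type genes were higher in KO or listed there alone. Chrna1 (NCBI gene 11435), which encodes the muscle alpha subunit, was at 0.382 FPKM in WT against 2.65 in KO. Its ratio of 6.94 (interval, 4.03 to 12.8) came from an estimated 15 and 110 fragments and was the highest of the 26 members. Chrng, which encodes the gamma subunit of the embryonic muscle receptor, was at 2.66 FPKM in KO (46 fragments) and not listed in WT, where 1 fragment would have been worth 0.0599 FPKM. Chrnd, which encodes the delta subunit, was at 0.781 FPKM in KO (21 fragments) and likewise not listed in WT. Chrnb1, which encodes the beta subunit, and Chrne, which encodes the adult epsilon subunit, were not listed in either table.

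Chrna1 lies on the minus strand of chromosome 2 from 73401272 to 73418395 in NCBIM37. Chrnd (89087227 to 89096644) and Chrng (89102386 to 89108410) lie on the plus strand of chromosome 1, 5741 bases apart, and no row of another gene overlapped the loci of these 3 genes in either table. Genes of muscle receptors are known to be switched on by myogenic factors, which bind the E-box, CANNTG. RefSeq promoters (GRCm38.p6, 250 bases before to 50 after the start) were matched for Chrna1 and Chrng by symbol, and are shown 5′ to 3′ on the coding strand because Chrna1 was higher in KO and Chrng was listed there alone. Capitals mark each E-box, a motif that reads the same on both strands.
Chrna1: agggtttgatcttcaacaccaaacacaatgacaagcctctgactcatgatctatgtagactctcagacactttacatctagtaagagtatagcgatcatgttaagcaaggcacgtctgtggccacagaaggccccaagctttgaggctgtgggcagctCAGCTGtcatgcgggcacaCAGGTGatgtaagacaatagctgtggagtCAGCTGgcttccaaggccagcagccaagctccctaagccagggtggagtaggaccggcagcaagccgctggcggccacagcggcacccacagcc
Chrng: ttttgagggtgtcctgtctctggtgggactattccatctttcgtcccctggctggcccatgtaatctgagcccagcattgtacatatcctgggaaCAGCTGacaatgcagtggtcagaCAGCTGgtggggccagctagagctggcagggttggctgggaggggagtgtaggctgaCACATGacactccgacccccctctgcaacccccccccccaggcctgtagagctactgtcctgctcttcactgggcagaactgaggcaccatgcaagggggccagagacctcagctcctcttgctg
The Chrna1 window is chr2:73580289-73580588 on the minus strand and the Chrng window is chr1:87205561-87205860 on the plus strand. Each holds 3 E-boxes, and 2 of the 3 in each have the form CAGCTG. Of 32544 promoter windows of this length, 72.3% hold a CANNTG, 17.6% hold 3 or more, and 1.91% hold 2 or more CAGCTG. The minimums of 3 and 2 equal the counts in the windows shown, so these shares are a description and not a test. Of the clustering genes described below, Dok7 has 2 windows with 1 and 0 CANNTG and no CAGCTG, and Musk has 3 CANNTG, 1 of them CAGCTG. A match of letters is not evidence of binding, and none was measured.

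Markers of skeletal muscle were also higher in the KO library. Of 19 such marker genes, 18 had a value in either library, and their sum was 39.6 FPKM in WT against 179 in KO. Of the 7 listed in both tables with at least 1 FPKM in one of them, 6 were above 3/2, against 7.90% of all genes. Myog, a myogenic factor, was at 0.160 FPKM in WT against 4.12 in KO, and Mylpf, a fast myosin light chain, was at 1.08 and 38.7 FPKM. In the WT table, Myod1, Myf5, Myh8, Tnnc2 and Myl1 were not listed. In KO, Myf5, Myh1, Myh2 and Myh3 were not listed, and the last 3 were low in WT. What part muscle-like cells had in the levels of Chrna1, Chrnd and Chrng was not tested. In bulk RNA, fewer cells of a type and less RNA per cell cannot be told apart.

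**Figure D4:**
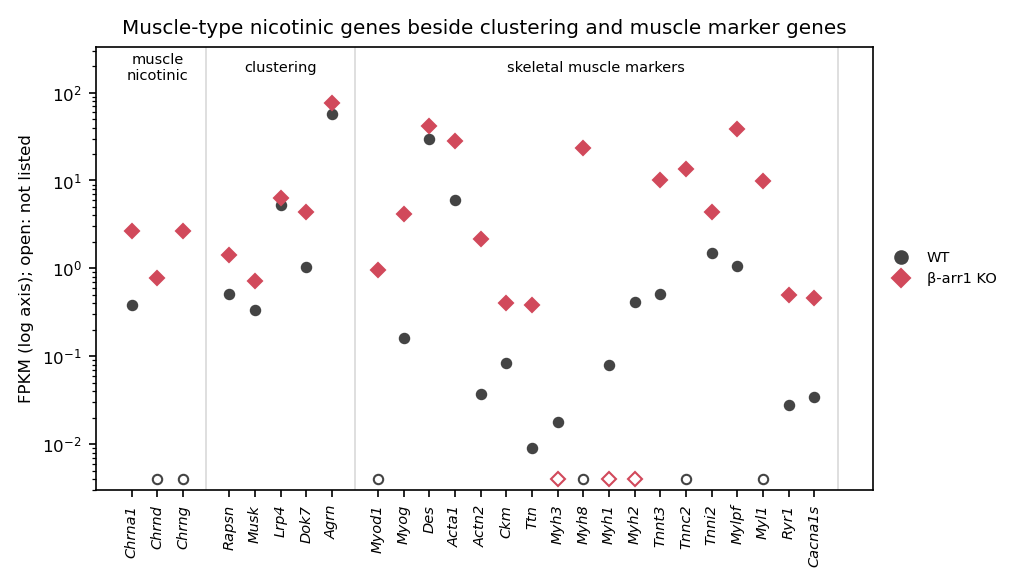
FPKM (log axis) of the 3 listed muscle-type nicotinic genes, of 5 genes for clustering of the receptor and of the 18 listed skeletal muscle markers, in WT (dark circles) and β-arr1 KO (red diamonds). Open symbols mark genes not listed in that library, and the 3 nicotinic genes are higher in KO, or listed there alone, beside most of the muscle markers.

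The genes that assemble and cluster nicotinic receptors were a fixed list of 10, and 8 of them reached 1 FPKM. The ratio was above 3/2 in 3 (Rapsn, Dok7 and Ric3), against 7.90% of all genes, and below 2/3 in none, and the median log2 ratio of the 8 was 0.34. Rapsn, whose product rapsyn anchors the muscle receptor, was at 0.506 FPKM in WT against 1.404 in KO, and reached 1 FPKM in KO alone. Dok7, which activates the muscle kinase MuSK, was at 1.02 and 4.34 FPKM, a ratio of 4.24. Ric3, a chaperone of neuronal nicotinic receptors, was at 2.03 and 3.08 FPKM, a ratio of 1.52. Agrn, whose product agrin starts clustering at the nerve-muscle junction, was the highest of the list at 56.4 and 75.6 FPKM, a ratio of 1.34.

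The neuronal nicotinic genes were low, with a sum of 1.88 FPKM in WT against 2.67 in KO over 7 listed genes. Chrna4, which encodes the alpha 4 subunit, was at 0.786 FPKM in WT against 1.34 in KO (ratio 1.70, interval 1.09 to 2.70). Chrna7, whose product forms calcium-permeable homomers, was at 0.818 and 1.06 FPKM (ratio 1.30, interval 0.710 to 2.40). Chrnb2, which encodes the usual partner of alpha 4, was not listed, and a row of its neighbour Adar overlapped its locus in both tables. Chrna2 was at 0.125 FPKM in WT against 0.0607 in KO, and Chrnb3 was listed in KO alone at 0.0233 FPKM, an estimated 1 fragment.

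P2X genes were the family whose sum was lower in KO, at 35.7 FPKM in WT against 31.4 in KO. P2rx4, whose product is a calcium-permeable channel, was the highest, at 19.2 and 15.1 FPKM (ratio 0.787, interval 0.684 to 0.905). P2rx1, known from smooth muscle and platelets, was at 4.77 FPKM in WT against 3.13 in KO (ratio 0.657, interval 0.479 to 0.896). P2rx6, whose product works mainly in mixed trimers, was at 2.04 FPKM in WT against 1.07 in KO (ratio 0.525, interval 0.335 to 0.810). In the annotation, though not in the rows of the tables, the bounds of P2rx6 overlap those of Slc7a4, which had a ratio of 0.632, and whether reads were shared was not tested.

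The pore-forming P2X7 receptor needs high ATP. Its gene P2rx7 was at 5.22 FPKM in WT against 7.37 in KO (ratio 1.41, interval 1.19 to 1.67). P2rx7 and P2rx4 lie 16.2 kb apart on chromosome 5, and the intervals of their ratios lay on opposite sides of 1. P2rx5 was at 4.24 and 4.19 FPKM, and P2rx2 was at 0.213 and 0.408 FPKM. The share of P2rx7 in the P2X sum was 14.6% in WT (12.4 to 16.9) and 23.4% in KO (20.8 to 26.4).

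Below 1 FPKM, 16 members were listed in both tables, of which 9 were higher in KO. This was not counted over all genes, so the 9 are not a result about channel genes. With the minimum lowered to 0.1 FPKM, 14 of 36 members were past a limit, against 20.0% of all genes. In 8 of the 16, each library held an estimated 4 fragments or fewer, at levels from 0.0286 to 0.178 FPKM. Grin2c and Chrnb4 had 2 fragments in each library and Chrna5 had 1 in each, and their ratios, all 0.973 or 0.974, follow from the difference in depth. No difference was detectable at this depth for such genes.

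Auxiliary subunits of AMPA and kainate receptors set their trafficking and gating, and were described as a fixed list of 13 genes. Of the 6 at 1 FPKM or more, 4 were above 3/2, against 7.90% of all genes, 0 were below 2/3 and the median log2 ratio was 0.64. These were the TARP genes Cacng4 (4.81 and 7.50 FPKM, a ratio of 1.56) and Cacng8 (3.94 and 6.49 FPKM, 1.65), Shisa6 (1.50 and 2.33 FPKM, 1.55) and the kainate receptor partner Neto2 (3.82 and 6.45 FPKM, 1.69). The interval of Cacng8 (0.901 to 3.09) included 1, and those of the other 3 did not. Cacng7, the highest of the list, was at 33.0 and 31.6 FPKM, and Neto1 was at 1.34 and 0.921 FPKM. With 1 FPKM added to each value, 2 of the 6 were past the limits.

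Scaffold genes hold glutamate receptors at the synapse. Of 12 such genes at 1 FPKM or more, 1 was past the limits, against 14.6% of all genes. This was Lin7b at 0.692 and 1.67 FPKM, which reached 1 FPKM in KO alone and whose interval (0.673 to 10.7) included 1. Homer3 was the highest at 44.5 and 34.9 FPKM, and the median log2 ratio was 0.03. Of 10 genes for anchoring and trafficking of GABA-A and glycine receptors, 2 were above 3/2, against 7.90% of all genes, and 0 below 2/3. Zdhhc3, an enzyme that palmitoylates proteins, was among them, at 15.7 and 27.2 FPKM. Gabarap, the highest of them, was at 299 and 282 FPKM, and the median was 0.20.

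Supply of the NMDA receptor co-agonists glycine and D-serine was represented by 6 genes at 1 FPKM or more in both tables. None of them was past the limits, against 14.6% of all genes, and their median log2 ratio was 0.05. Psat1 and Phgdh of serine synthesis were the highest, at 32.6 and 36.8 FPKM and at 33.9 and 43.6 FPKM. Shmt1 was listed in WT alone at 1.33 FPKM. Among 9 genes for the release and breakdown of extracellular ATP, the adenosine receptor genes Adora1 and Adora2b included, 1 was above 3/2 and 2 were below 2/3. Over all genes, 7.90% were above 3/2 and 6.74% below 2/3. The median log2 ratio of the 9 was -0.11. Alpl, a phosphatase that splits nucleotides, was at 27.4 and 56.4 FPKM. Slc17a9, which loads ATP into vesicles, was at 1.14 and 0.302 FPKM, and Nt5e, which makes adenosine from AMP, was at 2.61 and 1.17 FPKM. Gja1, a connexin through which astrocytes can release ATP, was at 34.0 and 29.4 FPKM.

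**Figure D5:**
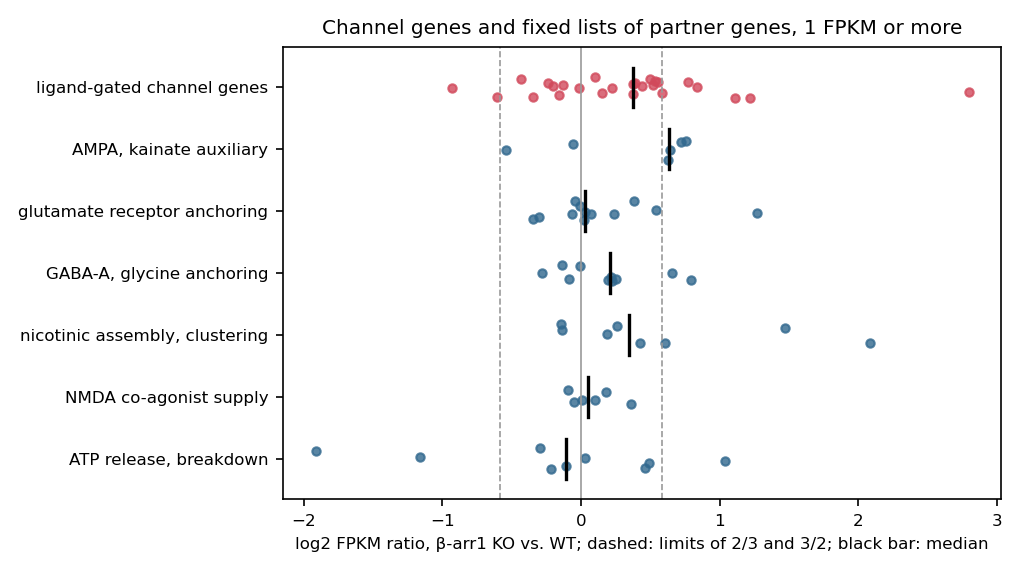
log2 FPKM ratio of β-arr1 KO vs. WT for the 26 channel genes (red) and for genes of 6 fixed partner lists (blue), for genes at 1 FPKM or more in at least one library and listed in both. Black bars are medians, dashed lines mark the limits of 2/3 and 3/2, and the median is 0.37 for the channel genes and 0.64 for the AMPA and kainate auxiliary subunits.

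The cultures held markers of other cell types, and these differed between the libraries as well. Of 10 astrocyte markers, 9 were at 1 FPKM or more, of which 4 were above 3/2 and 0 below 2/3. Over all genes, 7.90% were above 3/2 and 6.74% below 2/3. Gfap was at 189 and 192 FPKM and S100b at 29.3 and 51.7 FPKM. Aldh1l1 and Aqp4, which define astrocytes, were at 9.75 and 13.6 FPKM and at 7.05 and 13.5 FPKM. Glul and Gja1 were lower in KO, at 83.3 and 61.8 FPKM (ratio 0.742) and at 34.0 and 29.4 FPKM (ratio 0.862). Gjb6 was not listed in WT. The 10 microglia markers, all at 1 FPKM or more, summed to 923 FPKM in WT against 720 in KO, a ratio of 0.780. In WT, C1qb, C1qa and Cd68 were the highest of them, and their ratios were 0.793, 0.738 and 0.645. Csf1r, P2ry12 and Tmem119 had ratios of 0.923, 0.922 and 0.961, and Cx3cr1 alone was higher in KO, at 1.05. Of the 10 markers, 9 were inside the limits, and the median log2 ratio was -0.27. P2rx4 and P2rx7 had ratios of 0.787 and 1.41. Oligodendrocyte lineage markers, 8 of 9 listed, summed to 85.5 FPKM in WT against 127 in KO, and 4 of the 7 at 1 FPKM or more were above 3/2, beside the ratio of 2.16 of Gria2. Gpr17 was not listed in either table. Neuronal markers were near 0 for Rbfox3 (0.0743 and 0.108 FPKM), Snap25 and Syt1, and 12 of 13 were listed, with sums of 84.7 and 108 FPKM carried by Stmn2 and Tubb3. Prox1, a marker of dentate granule neurons, was at 1.05 and 2.17 FPKM (ratio 2.07, interval 1.41 to 3.10), the 1 of 4 neuronal markers at 1 FPKM or more that was above 3/2. Endothelial markers (7 of 7 listed) summed to 45.9 and 37.1 FPKM, a difference carried by Cdh5 (31.8 and 16.1 FPKM), while 2 of the 6 at 1 FPKM or more were above 3/2 and their median log2 ratio was 0.55. Mural and fibroblast markers (6 of 7 listed) summed to 2952 and 2767 FPKM, mostly Acta2 of smooth muscle actin at 2478 and 2469 FPKM. Of the 5 at 1 FPKM or more, 3 were below 2/3 (Dcn, Col1a1 and Rgs5), with a median log2 ratio of -0.70, and Lum was not listed in KO. Myh11 of the same list went the other way, at 40.4 FPKM in WT against 56.6 in KO, which is inside the limits. The part of these cells in the levels of the channel genes was not tested.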

How the data were processed

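The authors acquired paired reads of cDNA from WT and β-arr1 KO DG astrocytes, aligned them to mm9 with TopHat (version 1.4.0 in the submitters' processing notes) and estimated expression with Cufflinks, whose version is not given in the sources used here. They deposited 1 FPKM value per gene and library, above 0 in every row. No counts, confidence bounds or estimation status are columns of these tables, and strand was not stated.

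Tables were joined by symbol, keeping the highest row where a symbol recurred. The ratio of KO vs. WT was taken without a pseudocount, over genes in both tables in which either library reached 1 FPKM. Genes missing from a table got no fold. Depth was fitted to single-transcript genes under 0.15 FPKM and over 1000 bases. Of these, 69.2% (WT) and 69.9% (KO) lay within 5% of 1, 2 or 3 fragments, with a length allowance of 170 bases. The fit was tested on simulated data. Estimated fragments gave Clopper-Pearson intervals, which take the longest GENCODE transcript for both libraries. Gene bounds were taken from GENCODE for NCBIM37, the assembly of mm9. Bounds in the tables were equal between libraries for 14 of the 26 members compared.

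Members, gene lists and limits were chosen with earlier results of these data known. Named genes were all members at 1 FPKM or more, the highest of each family below it, members in 1 table only, and partner genes past the limits or highest in their list; some of these are not reported here. Alternatives were other minimums, limits, pseudocounts (0.1 and 1 FPKM) and scalings. Scripts ran in Python 3.11.15 with pandas 2.3.3, numpy 2.4.6 and scipy 1.17.1, and plots were drawn with matplotlib 3.10.9.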

Additional observations from a re-analysis of the deposited data

How the results depend on the processing

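Members past the limits numbered 8 of 26. The number was 14 of 36 at a minimum of 0.1 FPKM (20.0% of all genes), 1 of 7 at 5 FPKM (10.1%), 5 of 21 at 1 FPKM in both libraries (11.8%), 3 of 26 with limits of 2 and 1/2 (5.65%), 5 of 14 with equal locus bounds (13.8%) and 3 of 26 with a pseudocount of 1 FPKM (9.63%). It was 10 of 29 at a minimum of 0.5 FPKM (16.6%) and 7 of 26 with a pseudocount of 0.1 FPKM (14.1%). Counting genes listed in 1 table only as changed gave 9 of 27 (17.8%). Rescaling to the same FPKM total gave 8 of 26 (14.7%). Rescaling to a median ratio of 1, or to the same upper quartile, gave 6 of 25 (14.6%). The 3 scalings and 2 pseudocounts gave 78 and 52 ratios for the 26 members, and no member past the limits changed direction. A limit was crossed in 8 of these ratios, 4 for Gabrb2 (1.35 to 1.48) and 1 each, with a pseudocount of 1 FPKM, for Chrna4 (1.31), Gabra2 (1.28), P2rx1 (0.716) and P2rx6 (0.681). The same pseudocount gave 2.64 for Chrna1, 2 auxiliary subunit genes past the limits in place of 4, and 1 gene for GABA-A and glycine receptor anchoring in place of 2, as it pulls low values together. Family sums were recomputed with the 3 scalings and with rows sharing a symbol summed, but not with pseudocounts, and these 36 values stayed within their counting intervals. No member had several rows. No paired analysis was possible because there was 1 library per genotype.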
